A study of Mus musculus with 6 samples.

Results

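The 10 epithelial transcripts were followed in ribosome-bound RNA from the neonatal mouse lung, and were chosen by name as classical markers of the cells that line the airspaces. They were Sftpc, Sftpb, Sftpa1 and Sftpd of alveolar type 2 (AT2) cells, Ager and Hopx of alveolar type 1 (AT1) cells, Scgb1a1 and Scgb3a2 of secretory airway cells, and Epcam and Cdh1, which most epithelial cells share. All 10 were among the 21603 genes measured in each sample. The RNA was recovered with the RiboTag method, in which Cre switches the ribosomal protein RPL22 to an HA-tagged form and an anti-HA antibody then pulls down the ribosomes of recombined cells with the RNA on them. The Cre driver was the tamoxifen-inducible transgene Pdgfrb(BAC)-CreERT2, directed at pericytes, the mural cells of capillaries, and not at epithelium. Mice were on the C57BL/6 background, received tamoxifen from P0 to P2 and were analysed at P8, with 3 in the control group and 3 in the Yap1,Wwtr1 iPCKO group. Mutants were lox/lox for both Yap1 and Wwtr1, which encode the Hippo pathway co-activators YAP1 and TAZ. Controls were lox/+ for both genes (given in the labels as Yap1+/-;Wwtr1+/-). All 6 carried the Cre transgene and Rpl22 lox/+, so that the controls had also lost a copy of each gene in recombined cells. Animals of both sexes could be in either group, and which libraries were prepared or run together is not given in the sources used here.

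AT2 cells make and recycle surfactant, a film of lipid and protein that keeps alveoli from collapsing, and they also act as progenitors of the flat AT1 cells through which gas is exchanged. Secretory (club) cells of the conducting airways release secretoglobins and carry detoxifying enzymes. None of these cells belongs to the pericyte lineage, so their transcripts in a pericyte pulldown make up the part of the profile that the driver does not account for by design. In such bulk RNA, fewer cells of a type and less RNA per cell cannot be told apart. Neither can be told apart from a change in how much RNA of untagged cells enters the pulldown. No input RNA was among the 6 samples.

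Pericyte markers were abundant in the pulldown, beside those of other mesenchymal cells and erythrocytes. Pdgfrb, the receptor whose promoter drives the Cre, stood at 1670, 1370 and 1570 RPKM (read counts scaled by gene length and library size, so that levels can be compared between genes) in the controls and 1450, 1370 and 1190 RPKM in the iPCKO samples. Its control mean was 4.23 times that of Sftpc, the most abundant of the epithelial transcripts. Notch3, a mural cell receptor, ranged from 279 to 343 RPKM in controls and Cspg4, which encodes the pericyte proteoglycan NG2, from 77.1 to 87.5 RPKM. Yap1 fell from 12.4 ± 0.859 to 5.61 ± 0.314 RPKM (mean ± SD, n = 3 each), a log2 fold change of -1.12 (limma adjusted p = 0.00017). Wwtr1 stood at 60.4 ± 9.48 and 62.0 ± 1.63 RPKM (log2 fold change 0.05, adjusted p = 0.82). A gene-level RPKM does not separate the floxed exons of either gene from the rest of its transcript. The Wwtr1 value therefore neither bears out nor contradicts the label. Why Yap1 fell at this level and Wwtr1 did not was not tested. Steps left by single reads in low RPKM values implied library totals of 17.41 to 34.67 M reads in controls and 14.24 to 39.58 M in iPCKO samples.

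The 10 epithelial transcripts were measured at levels that spanned a 232-fold range between Sftpc and Epcam in the control means. Their order in controls was Sftpc, Scgb1a1, Sftpb, Sftpa1, Ager, Sftpd, Scgb3a2, Hopx, Cdh1 and Epcam. Only Sftpd and Scgb3a2 overlapped as neighbours, at 18.4 to 26.0 and 18.2 to 25.3 RPKM. The iPCKO samples kept this order except that Scgb3a2 and Sftpd, which overlapped again, exchanged places by their means. Sftpc ranked 55 among all genes by its control mean and Epcam 11192. Together the 10 genes held 0.273%, 0.250% and 0.281% of the summed RPKM of controls 1 to 3, and 0.332%, 0.362% and 0.373% of that of iPCKO samples 1 to 3, so that every iPCKO sample lay above every control.

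Against the controls, all 10 log2 fold changes were above 0 in the iPCKO samples, with a median of 0.39 beside 0.00 over all 12034 genes tested. A gene was tested with limma on log2(RPKM + 0.1) where it reached 1 RPKM in at least 3 samples, and was called where its Benjamini-Hochberg adjusted p lay under 0.01 and its log2 fold change, in absolute value, over 0.5 (the thresholds of the study). Sftpb and Hopx passed both, and the other 8 did not. Of all genes tested 6.79% passed, 4.11% higher in iPCKO and 2.68% lower. In 7 of the 10 (all but Sftpd, Scgb3a2 and Epcam) every iPCKO sample lay above every control, an arrangement that 18.3% of all genes tested showed. With 3 samples against 3 a single comparison of ranks cannot go below p = 0.1 in an exact permutation test. The limma p-values set each difference against the spread between these animals, with variances moderated over all genes tested.

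**Figure D1:**
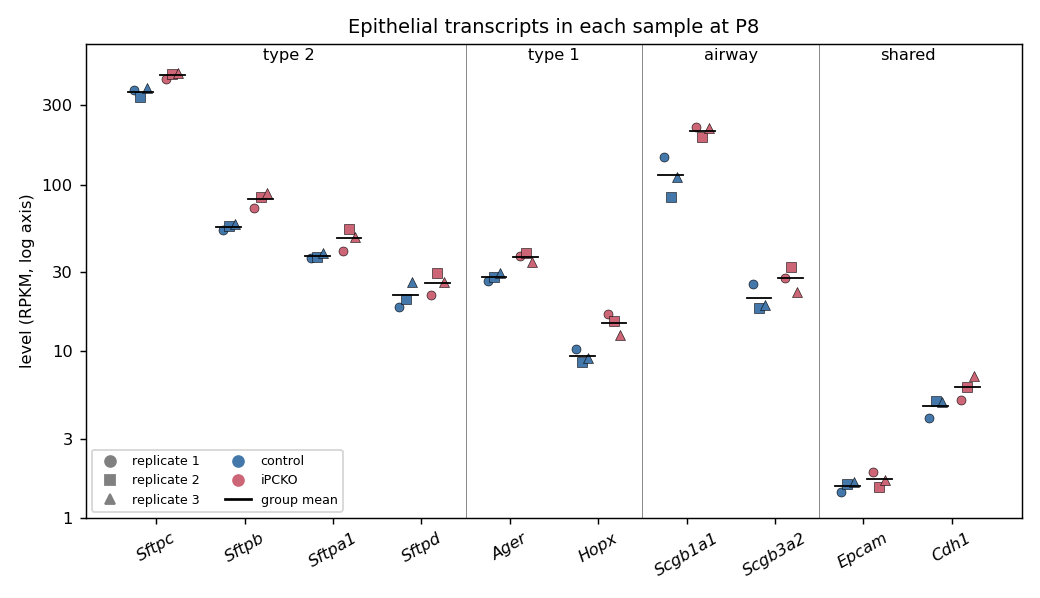
RPKM of the 10 epithelial transcripts (log axis) in each of 3 control (blue) and 3 iPCKO (red) samples, with circles, squares and triangles for replicates 1 to 3 and a line at each group mean. The iPCKO samples sit above the controls without overlap in 7 genes, while Sftpd, Scgb3a2 and Epcam overlap.

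Among the AT2 transcripts, the 4 surfactant proteins were all higher on average in the iPCKO samples, and Sftpb passed the thresholds. Sftpc (ENSMUSG00000022097, GRCm38 chr14:70520949-70524081, minus strand) encodes surfactant protein C, a small hydrophobic protein that is made in AT2 cells. It measured 369, 338 and 381 RPKM in controls 1 to 3 and 433, 462 and 467 RPKM in iPCKO samples 1 to 3. The groups did not overlap, yet the means of 363 ± 22.2 and 454 ± 18.7 RPKM differed by only 0.33 on the log2 scale (SE 0.11, 95% interval 0.07 to 0.58, adjusted p = 0.092), and the gene was not called. Sftpb (ENSMUSG00000056370, chr6:72304610-72314371, plus strand) encodes surfactant protein B, which is needed to spread the surfactant film and is made by club cells as well as AT2 cells. Its levels were 53.3, 56.7 and 57.9 RPKM in controls and 72.3, 84.5 and 89.6 RPKM in iPCKO samples. Every iPCKO sample lay above every control, and Sftpb rose by 0.55 on the log2 scale (SE 0.10, 95% interval 0.31 to 0.78, adjusted p = 0.0088). The call held without iPCKO 1 (0.64, adjusted p = 0.0032) but was lost when any of the other 5 samples was left out, with log2 fold changes of 0.48 to 0.57 and adjusted p-values of 0.026 to 0.042.

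Sftpa1 and Sftpd are collectins, sugar-binding proteins of the airspace that bind microbes, and their genes lie near each other on chromosome 14. Sftpa1 (ENSMUSG00000021789, chr14:41131782-41136452) measured 36.4, 36.7 and 39.1 RPKM in controls and 40.1, 54.1 and 48.6 RPKM in iPCKO samples. The lowest iPCKO sample was barely above the highest control, and the log2 difference of 0.34 (SE 0.12) had an adjusted p of 0.09. Sftpd (ENSMUSG00000021795, chr14:41172214-41185149) measured 18.4, 20.7 and 26.0 RPKM in controls and 21.9, 29.6 and 26.1 RPKM in iPCKO samples. These ranges overlapped, and the 95% interval of the log2 difference of 0.26 ran from -0.08 to 0.60 (adjusted p = 0.29), which includes 0 and also a difference beyond that of Sftpb. Averaged over the 4 AT2 transcripts, log2(RPKM + 0.1) was 5.99 in controls and 6.36 in iPCKO samples, a difference of 0.37 with a pooled SD between samples of 0.13.

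Both AT1 transcripts were higher in all 3 iPCKO samples than in any control, and Hopx passed the thresholds. Ager (ENSMUSG00000015452, chr17:34597862-34600936) encodes RAGE, a receptor displayed on the basal side of AT1 cells. It stood at 26.6, 27.9 and 29.4 RPKM in controls and 37.5, 39.2 and 34.3 RPKM in iPCKO samples. The replicates of each group were close together, and the log2 difference of 0.40 (SE 0.09, 95% interval 0.20 to 0.60, adjusted p = 0.018) fell short of both thresholds. Hopx (ENSMUSG00000059325, chr5:77086988-77115121) encodes a homeodomain protein without DNA-binding activity that is expressed in AT1 cells and also in other tissues. It measured 10.3, 8.66 and 9.12 RPKM in controls and 16.7, 15.2 and 12.5 RPKM in iPCKO samples. Hopx rose by 0.65 on the log2 scale (SE 0.12, 95% interval 0.37 to 0.93, adjusted p = 0.0087). This call held without iPCKO 3 (0.77, adjusted p = 0.0052) and was lost when any other sample was left out, with adjusted p-values of 0.014 to 0.039. Averaged over Ager and Hopx, log2(RPKM + 0.1) was 4.02 in controls and 4.55 in iPCKO samples, a difference of 0.53 with a pooled SD of 0.11.

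**Figure D2:**
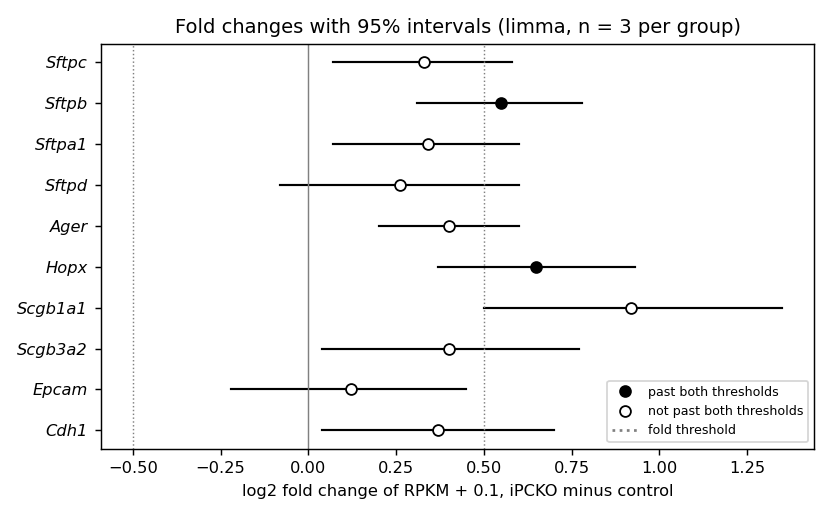
Log2 fold change of RPKM + 0.1 (iPCKO minus control, x axis) with its 95% interval from limma for each transcript (y axis), n = 3 per group, with filled points past both thresholds. Every point lies right of 0, Sftpb and Hopx are filled, and the intervals of Sftpd and Epcam include 0.

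Sequences just upstream of 4 alveolar transcripts are shown because they include both called genes (Sftpb and Hopx) and a neighbour of each in the same cell type (Sftpa1 and Ager). They are the 250 bases before the RefSeq start on GRCm38.p6, read 5′ to 3′ on the gene's strand. Capitals mark matches, on either strand, to the letters CAAGTG, a core bound by the lung epithelial homeodomain factor NKX2-1, or to a variant of that core, CTCAAG. The 2 forms share the letters CAAG and did not overlap in these windows, and a match on the other strand appears as its reverse complement. Capitals also mark the TATA box letters TATAA.
Sftpb (chr6:72304360-72304609, + strand): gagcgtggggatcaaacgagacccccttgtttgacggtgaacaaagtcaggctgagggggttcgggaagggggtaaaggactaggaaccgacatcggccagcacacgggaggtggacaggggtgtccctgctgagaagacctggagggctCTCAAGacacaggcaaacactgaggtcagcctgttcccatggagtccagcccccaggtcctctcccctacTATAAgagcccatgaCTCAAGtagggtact
Sftpa1 (chr14:41131538-41131787, + strand): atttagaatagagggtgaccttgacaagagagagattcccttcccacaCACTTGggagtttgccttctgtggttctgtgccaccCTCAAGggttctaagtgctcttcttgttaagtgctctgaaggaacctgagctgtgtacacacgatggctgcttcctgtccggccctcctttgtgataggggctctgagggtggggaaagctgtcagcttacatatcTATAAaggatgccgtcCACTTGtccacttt
Hopx (chr5:77115124-77115373, - strand): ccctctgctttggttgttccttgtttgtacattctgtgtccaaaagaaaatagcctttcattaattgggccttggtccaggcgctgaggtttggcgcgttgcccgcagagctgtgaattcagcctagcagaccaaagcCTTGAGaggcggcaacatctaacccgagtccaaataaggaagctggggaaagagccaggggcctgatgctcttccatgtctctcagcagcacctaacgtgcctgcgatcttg
Ager (chr17:34597600-34597849, + strand): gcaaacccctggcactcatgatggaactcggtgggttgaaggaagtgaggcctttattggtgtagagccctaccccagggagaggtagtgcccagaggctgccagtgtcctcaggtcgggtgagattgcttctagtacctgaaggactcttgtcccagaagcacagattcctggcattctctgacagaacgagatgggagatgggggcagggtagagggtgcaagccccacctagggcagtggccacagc
In Sftpb, CTCAAG lay 100 to 95 and 15 to 10 bases before the start and TATAA 30 to 26 bases before it. Sftpa1 had TATAA at the same 30 to 26 bases, CAAGTG on the other strand at 202 to 197 and at 14 to 9 bases, and CTCAAG at 166 to 161 bases. The Hopx window held CTCAAG on the other strand at 112 to 107 bases, and the Ager window held none of these letters. Of 32536 distinct windows of this length searched, 11.5% held CAAGTG, 13.3% CTCAAG and 22.7% TATAA. The letters CTCAAG and TATAA were chosen after these sequences had been seen, so their shares are no test of the matches shown. The windows of Epcam and of a second Hopx start were searched too and held none of them. The forkhead letters TGTTTAC, the TEAD letters GGAATG (TEAD proteins are the DNA-binding partners of YAP1 and TAZ) and the C/EBP letters TTGCNNAA occurred in none of the 6 windows searched, against 3.17%, 12.6% and 9.57% of all windows. These are matches of letters and not measured binding, and windows for Sftpc, Sftpd, Scgb1a1, Scgb3a2 and Cdh1 were not analysed here.

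The transcripts shared by most epithelial cells were the least abundant. Epcam (ENSMUSG00000045394) encodes a surface adhesion protein by which epithelial cells are commonly sorted. Its levels of 1.44, 1.6 and 1.64 RPKM in controls and 1.90, 1.53 and 1.68 RPKM in iPCKO samples overlapped, at roughly 53 to 130 reads per sample. The log2 difference was 0.12 (SE 0.15, 95% interval -0.22 to 0.45, adjusted p = 0.64), an interval that holds both 0 and the log2 difference of Sftpc. Cdh1 (ENSMUSG00000000303, chr8:106603351-106670246), which encodes E-cadherin of the adherens junction, measured 4.0, 5.07 and 5.0 RPKM in controls and 5.09, 6.12 and 7.10 RPKM in iPCKO samples. Its groups were separated only by the step from 5.07 to 5.09 RPKM, and the log2 difference of 0.37 (SE 0.15) had an adjusted p of 0.13.

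The airway transcripts gave the highest fold change of the 10, in Scgb1a1, without a call. Scgb1a1 (ENSMUSG00000024653, chr19:9083636-9087958) encodes the club cell secretory protein, the main secretoglobin of the distal airway. It measured 146, 84.0 and 112 RPKM in controls and 223, 193 and 219 RPKM in iPCKO samples. The iPCKO mean of 212 ± 16.4 RPKM was 1.86 times the control mean of 114 ± 31.2 RPKM, and the controls were spread more widely than the mutants. The log2 difference of 0.92 (SE 0.19, 95% interval 0.50 to 1.35) had an adjusted p of 0.012, just above the threshold of 0.01. Without control 1, the control with the highest level, Scgb1a1 passed (1.12, adjusted p = 0.005). This was its only call in the 6 limma fits with a sample left out, and the others gave adjusted p-values of 0.023 to 0.045. Scgb3a2 (ENSMUSG00000038791, chr18:43764289-43767399), another secretoglobin of airway cells, measured 25.3, 18.2 and 18.9 RPKM in controls and 27.6, 32.2 and 22.8 RPKM in iPCKO samples. Control 1 was again the highest control and lay above iPCKO 3, and the log2 difference of 0.40 (SE 0.16) had an adjusted p of 0.13. The mean of log2(RPKM + 0.1) over the 2 airway transcripts was 5.58 in controls and 6.25 in iPCKO samples, a difference of 0.66 with a pooled SD of 0.24.

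Ratios within a sample compare single transcripts of the cell types without regard to the scale of the library. Scgb3a2, the other airway transcript, entered no ratio, and its log2 fold change of 0.40 was the same as that of Ager. The log2 ratio of Sftpc to Scgb1a1 was 1.34, 2.01 and 1.76 in controls and 0.95, 1.26 and 1.10 in iPCKO samples. It was lower in every iPCKO sample, by 0.60 in the means, and its two-sided exact permutation p of 0.1 was the smallest this design allows (0.3 adjusted over the 3 ratios). Sftpc to Ager overlapped between the groups, at 3.69 ± 0.10 in controls and 3.62 ± 0.13 in iPCKO samples (exact permutation p = 0.5, adjusted 0.5). Scgb1a1 to Ager was 1.99 ± 0.44 and 2.51 ± 0.19, with control 1 at 2.46 inside the iPCKO range (exact permutation p = 0.2, adjusted 0.3). The exact permutation test of 3 samples against 3 cannot pass 0.05, so these p-values leave undecided whether Sftpc, Ager and Scgb1a1 differed in their response.

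**Figure D3:**
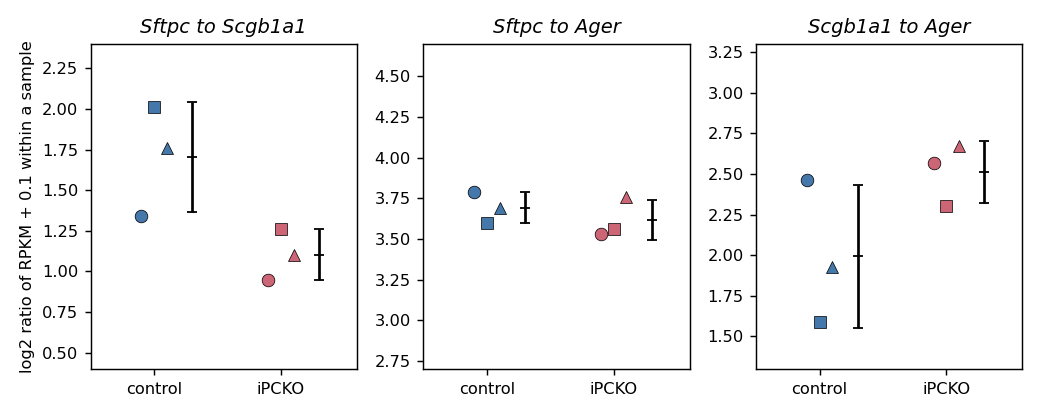
Log2 ratio of RPKM + 0.1 within each sample for 3 pairs of transcripts (one panel each, y axes of equal span), in control (blue) and iPCKO (red) samples, with circles, squares and triangles for replicates 1 to 3 and bars for the mean ± SD (n = 3). The Sftpc to Scgb1a1 ratio is lower in every iPCKO sample, whereas the other 2 ratios overlap.

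Wider marker lists of the same cell types were chosen with earlier results of these data known. Of 15 further AT2 genes, all tested, 2 passed higher and 0 lower, beside 4.11% and 2.68% of all genes tested, with a median log2 fold change of 0.31. Napsa, which encodes the protease napsin A that processes surfactant protein precursors, was at 6.61, 9.22 and 9.47 RPKM in controls and 13.4, 14.4 and 13.7 RPKM in iPCKO samples (log2 fold change 0.72, adjusted p = 0.0091). With samples left out in turn, it was called without control 1 and not without any of the other 5. Lyz2, lysozyme, passed as well (1.64, adjusted p = 0.0026) and was the most abundant of the list, but it is also made by macrophages and neutrophils. Lamp3 and Abca3, which encode lamellar body proteins and were named after their values were seen, had log2 fold changes of 0.06 and 0.12 (adjusted p = 0.82 and 0.54). Etv5, a transcription factor of AT2 cells that was likewise singled out afterwards, had a low adjusted p (0.0053) at a log2 fold change of 0.46, under the fold threshold.

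Further AT1 genes gave no call. Of 15 listed, 14 were tested, and 0 passed in either direction by limma, with a median log2 fold change of 0.08. At an unadjusted limma p below 0.05 there were 2, Spock2 higher and Emp2 lower. Of all genes tested, 16.1% had such a p with a log2 fold change above 0, a background for Spock2 only. The share with such a p and a lower level was not counted. Emp2, a membrane protein of AT1 cells and the most abundant of the list, lay at 223 to 245 RPKM in controls and 161 to 202 RPKM in iPCKO samples. That is the opposite direction to Ager (log2 fold change -0.38, adjusted p = 0.063). The Emp2 control mean of 237 RPKM was far above the 28.0 RPKM of Ager. How much of the Emp2 level came from AT1 cells was not tested. Pdpn, the podoplanin of AT1 and lymphatic cells, and Aqp5, a water channel, both chosen after their values were seen, had log2 fold changes of 0.07 and -0.22 (adjusted p = 0.81 and 0.35).

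Of 13 further airway secretory genes, 8 were tested, and 3 of them passed higher and 0 lower, beside 4.11% and 2.68% of all genes tested. Cyp2f2, a cytochrome P450 of club cells, was at 8.84, 9.20 and 8.04 RPKM in controls and 14.4, 17.0 and 13.4 RPKM in iPCKO samples (log2 fold change 0.77, adjusted p = 0.0023), and its call was lost without control 3. Cbr2, a carbonyl reductase of the lung, passed with 0.55 (adjusted p = 0.0095) and was lost whichever of the 6 samples was left out. Hp, haptoglobin, passed with 2.28 (adjusted p = 0.00041), and it is also made by neutrophils. Of 12 ciliated cell genes only 4 reached the level for testing and 0 passed by limma. At an unadjusted limma p below 0.05 there were 2 (Dnah5 and Mlf1, both higher), beside 16.1% of all genes tested that were higher at that p. Dnah5 reached 1 RPKM only in control 2 (1.19 RPKM) and iPCKO 2 and 3 (1.67 and 2.05 RPKM). It thus met the filter mainly through the group where it was higher. The most abundant ciliated gene was Tppp3, at 89.0 to 119 RPKM in controls and 111 to 147 RPKM in iPCKO samples. Foxj1, a regulator of motile cilia, stayed at or under 1.18 RPKM in all 6. Tppp3 averaged 113 RPKM over all samples and the next of the list, Mlf1, 2.84 RPKM. How much of the Tppp3 level came from ciliated cells was not tested. Mlf1 was the only tested ciliated gene at an adjusted p below 0.05 (1.01, adjusted p = 0.011). None of the 8 basal and neuroendocrine genes reached the level for testing, and Krt5, the basal cell keratin, was listed at 0 in all 6 samples.

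Epithelial genes without cell type and the transcription factors of lung epithelium gave a single call, toward lower levels. Of 22 further shared epithelial genes, 18 were tested, 0 passed higher by limma and 1 lower, beside 4.11% and 2.68% of all genes tested. Their median log2 fold change was 0.15. At an unadjusted limma p below 0.05 there were 5, of which Cdh3 and Met were lower. Of all genes tested, 16.1% were higher at that p, a background for the higher genes only, and the share that were lower was not counted. The gene that passed lower was Cdh3, P-cadherin, at 2.92, 2.45 and 2.85 RPKM in controls and 0.440, 0.375 and 0.530 RPKM in iPCKO samples (-2.38, adjusted p = 0.00011). Cdh3 met the filter of 1 RPKM only through the controls, the group where it was higher. Prss8, the most abundant of this list, had a log2 fold change of -0.21 (adjusted p = 0.21). Of 13 transcription factors, 10 were tested and 0 passed by limma. At an unadjusted limma p below 0.05 there were 3 (Foxa1 and Elf5 lower, Gata6 higher). The same 16.1% of all genes tested is a background for Gata6 only, and the share that were lower was not counted. Only 2 of the 10 log2 fold changes were above 0, and the median was -0.12. The filter had a part in this balance, since Foxa1 and Elf5 reached 1 RPKM only in controls. Sox9, named afterwards, was not tested and was higher in every iPCKO sample (means of 0.355 RPKM in controls and 1.17 RPKM in iPCKO samples). Id2, the most abundant and not restricted to epithelium, ranged from 34.7 to 36.3 RPKM in controls and from 31.1 to 34.2 RPKM in iPCKO samples. Nkx2-1, known from lung and thyroid epithelium and singled out afterwards, was at 7.21, 5.91 and 6.16 RPKM in controls and 5.87, 5.96 and 5.80 RPKM in iPCKO samples (-0.12, adjusted p = 0.47). Foxa1, also picked afterwards, was lower in every iPCKO sample (-0.67, adjusted p = 0.045) at 0.696 to 1.39 RPKM.

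**Figure D4:**
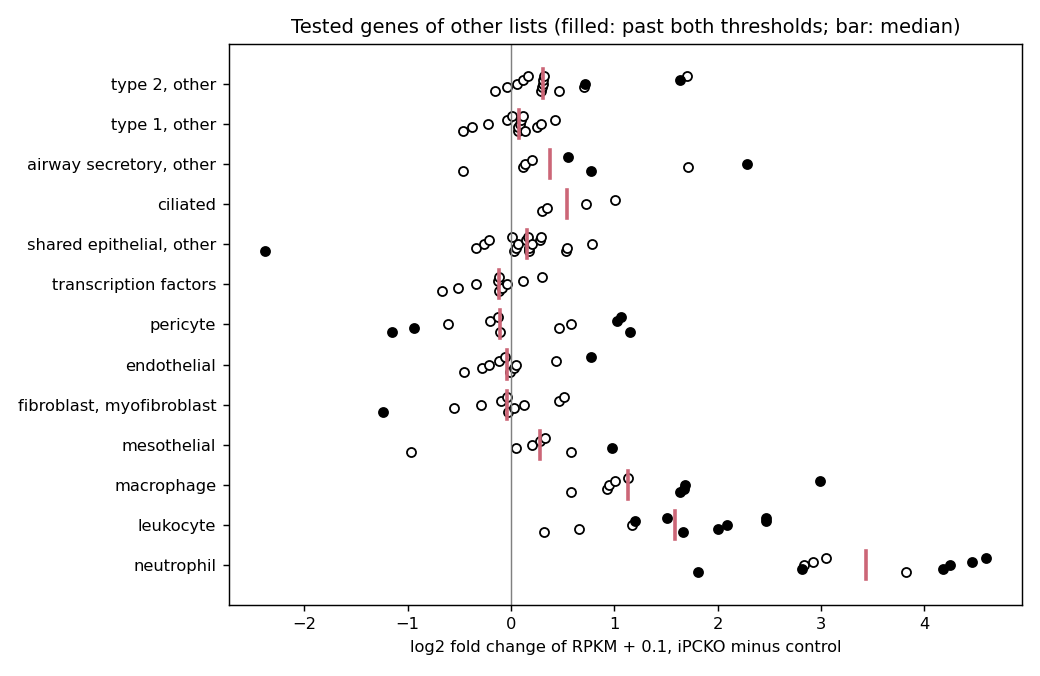
Log2 fold change of RPKM + 0.1 (iPCKO minus control, x axis) of every tested gene in marker lists other than the 10 transcripts (y axis), filled where past both thresholds, with a red bar at each list's median. Medians of the epithelial lists run from -0.12 (transcription factors) to 0.54 (ciliated, only 4 tested genes). Among these 4, Dnah5 met the filter mainly through iPCKO samples. The neutrophil, leukocyte and macrophage lists lie farthest right with medians of 3.44, 1.59 and 1.13.

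Markers of blood-borne and resident immune cells moved in the same direction as the epithelial transcripts, with higher list medians (3.44 for neutrophil, 1.59 for leukocyte and 1.13 for macrophage genes). All 10 neutrophil genes were higher in every iPCKO sample than in any control, an arrangement that 18.3% of all genes tested showed. Of the 10, 6 passed higher, beside 4.11% of all genes tested. Their summed levels were 90.8 to 133 RPKM in controls and 475 to 5180 RPKM in iPCKO samples. The most abundant, S100a9, was at 40.6, 52.7 and 39.9 RPKM in controls and 221, 981 and 2350 RPKM in iPCKO samples 1 to 3. Of the 9 macrophage genes tested 4 passed higher, beside the same 4.11%, with sums over the 10 listed of 111 to 190 and 374 to 577 RPKM. Marco, among these 4, met the filter of 1 RPKM only through the iPCKO samples (controls 0.281 to 0.624 RPKM). Of 10 pan-leukocyte genes 7 passed higher, with sums of 73.4 to 92.6 and 159 to 292 RPKM. Of the mutants, iPCKO 3 had the highest S100a9. Its Sftpc, Sftpb and Cdh1 were the highest of the mutants, its Ager, Hopx and Scgb3a2 the lowest, and its other epithelial transcripts of the 10 lay in between. No neutrophil gene was at 0.1 RPKM or less in all samples. Erythrocyte genes overlapped between groups (2690 to 3270 and 1790 to 6660 RPKM, 0 of 8 passed by limma and 0 at an unadjusted p below 0.05). The part of these cells in the epithelial differences was not tested.

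Among structural cells of the lung, list medians lay near 0 for pericyte, endothelial, fibroblast and smooth muscle genes (-0.11, -0.04, -0.03 and 0.00). Genes of these lists were called in both directions, beside 4.11% higher and 2.68% lower of all genes tested. A median near 0 therefore does not mean that the genes of a list were unchanged. Endothelial genes summed to 238 to 259 RPKM in controls and 247 to 273 RPKM in iPCKO samples, and 1 of 10, the VEGF receptor Kdr, passed higher. Pericyte genes summed to 4280 to 5280 and 4390 to 5220 RPKM. Of the 11 tested, 3 passed higher (Cspg4, Kcnj8 and Abcc9) and 2 lower (Notch3 and Rgs5). Fibroblast genes summed to 2440 to 3080 and 1620 to 2100 RPKM, with Eln, elastin, the most abundant and the only one of 10 to pass (-1.24, adjusted p = 0.0042). Smooth muscle genes summed to 1300 to 1480 and 1430 to 1570 RPKM, and Cnn1 and Actg2 passed higher. Mesothelial genes, of which Krt8, Krt18 and Krt19 are shared with the epithelial list, summed to 23.0 to 28.4 and 25.9 to 32.0 RPKM, with Msln passing higher (0.98, adjusted p = 0.003). The part of these shifts in the epithelial differences was not tested.

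The genes whose levels followed the leading transcript of each class most closely over the 6 samples were mostly not epithelial markers. For Sftpc they were F11r, a tight junction protein of epithelium and endothelium (Pearson r = 0.995), Hsd17b11 (0.995), Lrmda (0.993), B4galt1 (0.993) and Notch1 (0.990). For Ager they were Tpm2, a muscle tropomyosin (0.997), Ddah1 (0.995), Grk3, Hdac9 and Pisd (0.993 each). For Scgb1a1 they were Ube2k (0.992), Prdx6 and Mrpl52 (0.990 each) and Tceal8 (0.988). Values of r above 0.9 were common, with 3.93%, 4.12% and 3.33% of all genes tested for Sftpc, Ager and Scgb1a1. These points share their libraries and the difference between the groups, and the likeness is a description over 6 samples.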

How the data were processed

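Ribosome-associated RNA of 3 control and 3 iPCKO lungs at P8 was analysed, with groups and replicate numbers from the sample labels. Per the labels and the study's methods, libraries were strand-specific, TopHat placed the read pairs on mm10 (GRCm38), HTSeq 0.6.1 counted them by gene and DESeq2 was used for tests. The authors deposited RPKM per Ensembl gene, 1 table per sample; which exon length and read total entered is not given in the sources used here. RPKM removes depth and length, so the error of a low gene depends on reads the value no longer shows. Approximate reads per gene used the annotated exon length. Single reads on a gene of 1 kb were worth 0.0253 to 0.0702 RPKM, and 75.1% to 77.1% of low genes (10 reads or fewer) fell no farther than 0.02 reads from a whole number.

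Symbols for 21375 genes and their coordinates (1-based) came from GENCODE M21. RPKM were not scaled further. limma 3.58.1 (lmFit, eBayes with an intensity trend) was run in R 4.3.3 on log2(RPKM + 0.1) of the 12034 genes with at least 1 RPKM in at least 3 samples, group being the only term, and was tested on simulated data. Fold changes are iPCKO minus control on that scale and understate changes of low genes. Single ratios used the exact two-sided permutation test (scipy 1.17.1). Figures were drawn with matplotlib 3.10.9.

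The members and lists were chosen with earlier results of these data known. Named were all members, the most abundant gene and up to 6 called genes of each list, the 5 genes most like Sftpc, Ager and Scgb1a1, the deleted genes and 3 pericyte genes; other genes are said to be chosen afterwards. Some genes are not reported here. Upstream sequences came from a RefSeq table, in which 5 members had 6 windows; the letters CTCAAG and TATAA were searched after the sequences had been seen. Alternatives tried were other pseudocounts (1 and 0.01 RPKM), no filter, median-ratio scaling, a replicate block, each sample left out, and other thresholds (adjusted p of 0.05, log2 fold change of 1). A filter of 1 RPKM in all 6 samples and no intensity trend were chosen after seeing the data. No batch labels were given.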

Additional observations from a re-analysis of the deposited data

How the results depend on the processing

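All 10 member fold changes stayed above 0 in each of the 13 alternative fits, but the count of members past the thresholds did not hold. It was 0 without a filter, 0 without the intensity trend (chosen after seeing the data), 1 with median-ratio scaling (Hopx), 0 at an absolute log2 fold change above 1, 3 at an adjusted p below 0.05 (Scgb1a1 added), and 0 to 1 with a sample left out. Genes past the thresholds numbered 382 (without control 3) to 899 with a sample left out, 1313 at an adjusted p below 0.05 and 411 at an absolute log2 fold change above 1, against 817. The AT2 list gave 1 with no filter, median-ratio scaling, no intensity trend or a log2 fold change above 1, 4 at an adjusted p below 0.05, and 1 to 2 with a sample left out. The airway secretory list gave 1 to 2 with a sample left out and 1 at a log2 fold change above 1. The shared epithelial list gave 0 with the filter in all 6 samples, in which Cdh3 was no longer tested, 2 at an adjusted p below 0.05, and 1 to 2 with a sample left out. The ciliated list gave 1 and the transcription factors 1 at an adjusted p below 0.05, and the transcription factors 1 (Foxa1) without the intensity trend. Apart from these, the cause of the changes was not tested. Class means and ratios moved by less than 1 SD under the pseudocounts and with samples left out.

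With the replicate block, 922 genes passed and 3 members did, Scgb1a1 (adjusted p = 0.0032) beside Sftpb and Hopx. Deviations of same-numbered samples from their group means correlated weakly (r = 0.238, 0.092 and 0.022), so the pairing rests on the numbers alone. Low-level genes such as Epcam are limited by reads, and 3 animals per group limit every comparison.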
